A study of Homo sapiens with 15 samples.

Results

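Collagen genes encode the chains that assemble in threes into the triple helices of the extracellular matrix. The 29 genes described here are the rows of the deposited gene table whose symbol is COL, a number, A and a number, with nothing after it, out of 18858 genes in all. By the type of collagen they encode, 8 are fibrillar, 6 are type IV chains of the basement membrane, 3 are type VI chains and 12 belong to other types. RNA was measured in MDA-MB-231, an established human breast adenocarcinoma line, in 5 groups of 3 libraries. Cells were left untransfected (Control, libraries 16, 21 and 26), or received a non-targeting siRNA pool (siControl, 17, 22 and 27), a pool against YAP1 (siYAP, 18, 23 and 28), a pool against WWTR1, the gene of TAZ (siTAZ, 19, 24 and 29), or both pools together (siYAP+TAZ, 20, 25 and 30). After 48 h of knockdown the transfected cells were replated for 5 to 6 h on gelatin, which is denatured collagen, before RNA was extracted. The untransfected cells of Control are likewise listed with 5 to 6 h on gelatin. Cells given both pools received more siRNA in total than those given 1 pool, and the amount of siRNA and the co-knockdown cannot be told apart here. In what follows, normalized counts are read counts divided by the TMM-scaled library size relative to the mean library. Fold changes are log2 values with their SE, and p-values come from edgeR's quasi-likelihood test in 1 fit over the 15 libraries, adjusted by the Benjamini-Hochberg method over all genes.

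The chains of a collagen wind around each other along stretches in which glycine recurs with 2 other residues after each (Gly-X-Y), since glycine is the only residue small enough to pack in the middle of the helix. Fibrillar chains such as types I and V carry one long uninterrupted helix and assemble into fibrils, type IV chains form the sheet-like network of basement membranes, and type VI chains form beaded microfilaments between the cell and its matrix. YAP and TAZ are transcriptional co-activators of the Hippo pathway that act on genes mostly through TEAD factors.

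Sequencing depth was between 18696737 and 30107312 counts per library, of which the collagen genes together took between 0.185% and 0.289%. Of the 29 genes, 24 reached 10 reads in 3 or more libraries, and 19 averaged 20 normalized counts or more. The remaining genes carry large counting errors. In such bulk RNA, fewer cells of a type and less RNA per cell cannot be told apart. The targeted RNAs were uneven. YAP1 had 4431, 4333 and 4202 normalized counts in siControl, 1013, 2764 and 761 in siYAP, and 2240, 2202 and 1796 in siYAP+TAZ, with log2 fold changes of -1.51 (SE 0.37, edgeR adjusted p = 0.099) and -1.06 (SE 0.37, adjusted p = 0.072). WWTR1 had 1995, 1850 and 1579 in siControl, 828, 254 and 521 in siTAZ, and 1133, 1123 and 1284 in siYAP+TAZ, with log2 fold changes of -1.74 (SE 0.31, adjusted p = 0.019) and -0.62 (SE 0.30, adjusted p = 0.20). The cells carried VIM and CD44, summing to between 47519 and 57188 normalized counts. Of 5 genes listed as low in this line, ERBB2 and EPCAM were nonetheless present (sum with PGR between 2436 and 3211). PGR reached at most 8.32, and ESR1 and CDH1 had no entry in the deposited counts. Of 6 fibroblast genes, 2 were in the table, and their sum was between 50.2 and 83.7 in siControl and between 161 and 255 in siYAP+TAZ. Most of that sum was PDGFRB, a growth factor receptor, which rose in siYAP+TAZ (log2 fold change 1.60, SE 0.29, edgeR adjusted p = 0.00099), whereas LUM reached at most 7.15. Of 4 endothelial genes, 2 were in the table, and their sum was between 151 and 195 in siControl and between 211 and 279 in siYAP+TAZ, with PECAM1 rising by 3.03 (SE 0.34, adjusted p = 9.1e-06). The other of these, KDR, averaged 162 in siControl and 133 in siYAP+TAZ, and its difference of -0.28 (SE 0.14, adjusted p = 0.20) did not pass the test. Of 3 leukocyte genes, only PTPRC was in the table, and it reached at most 5.10. Whether these markers have a part in the collagen values was not tested. The study describes 3 independent sets of experiments, but neither its text nor the labels assign the libraries to these sets, so the p-values measure the spread between these libraries.

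The glycine repeat of each chain can be read in its coding exons. The following exons are those of chains whose RNA the results below turn on, from GENCODE release 44 on GRCh38, written 5′ to 3′ on the coding strand with the first codon of each Gly-X-Y triplet, a glycine codon (GGN), in capitals. They are exon 15 of COL6A1 (chr21:45990979-45991041, plus strand), exon 11 of COL6A2 (chr21:46117874-46117936, plus strand), exon 24 of COL6A3 (chr2:237353341-237353403, minus strand), exon 15 of COL5A1 (chr9:134753850-134753903, plus strand), exon 8 of COL1A1 (chr17:50197949-50198002, minus strand), exon 56 of COL12A1 (chr6:75101999-75102052, minus strand), exon 17 of COL15A1 (chr9:99034549-99034584, plus strand), exon 15 of COL18A1 (chr21:45482795-45482821, plus strand), exon 104 of COL7A1 (chr3:48568499-48568534, minus strand) and exon 4 of COL4A1 (chr13:110213782-110213826, minus strand), counted among coding exons.
COL6A1: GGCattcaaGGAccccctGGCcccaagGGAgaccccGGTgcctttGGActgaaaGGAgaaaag
COL6A2: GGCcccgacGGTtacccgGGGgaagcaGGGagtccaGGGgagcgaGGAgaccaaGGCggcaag
COL6A3: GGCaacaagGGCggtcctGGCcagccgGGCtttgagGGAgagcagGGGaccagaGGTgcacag
COL5A1: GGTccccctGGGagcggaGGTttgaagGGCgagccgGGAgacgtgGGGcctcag
COL1A1: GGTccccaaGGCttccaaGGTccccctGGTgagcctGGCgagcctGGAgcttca
COL12A1: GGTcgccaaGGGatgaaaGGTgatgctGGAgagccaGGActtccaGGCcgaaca
COL15A1: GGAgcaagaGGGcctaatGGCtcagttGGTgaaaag
COL18A1: GGTgaagcaGGCgccccaGGAcataag
COL7A1: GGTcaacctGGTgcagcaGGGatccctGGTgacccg
COL4A1: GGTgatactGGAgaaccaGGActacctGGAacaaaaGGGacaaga
The exons were picked to lie in the longest glycine run of each gene and to start in its frame. Their length is the commonest among exons inside such runs of the gene. By this choice each begins with a glycine codon and repeats it every 9 bases, and so holds a whole number of Gly-X-Y triplets.

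Across the 29 genes, coding exons that lie wholly inside runs of at least 5 such triplets had lengths that are multiples of 9 bases in 740 of 802 cases (92.3%), against 129 of 610 exons outside the runs (21.1%). The fibrillar genes were the most regular, with 374 of 376 exons inside the runs (99.5%) at a multiple of 9 and 223 (59.3%) at exactly 54 bases. In type VI genes 48 of 50 such exons (96.0%) were multiples of 9, and the commonest length was 63 bases in COL6A1, COL6A2 and COL6A3. In type IV genes the share was 107 of 147 (72.8%). The longest unbroken run was 338 triplets in COL5A1 and COL1A1, 87 in COL6A1 and COL6A2, 45 in COL6A3 and 40 in COL4A1, and 32 in COL12A1, in which only 8.23% of codons lie in such runs. COL8A1 and COL8A2, the short-chain network collagens, have 2 coding exons each and none wholly inside a run.

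**Figure D1:**
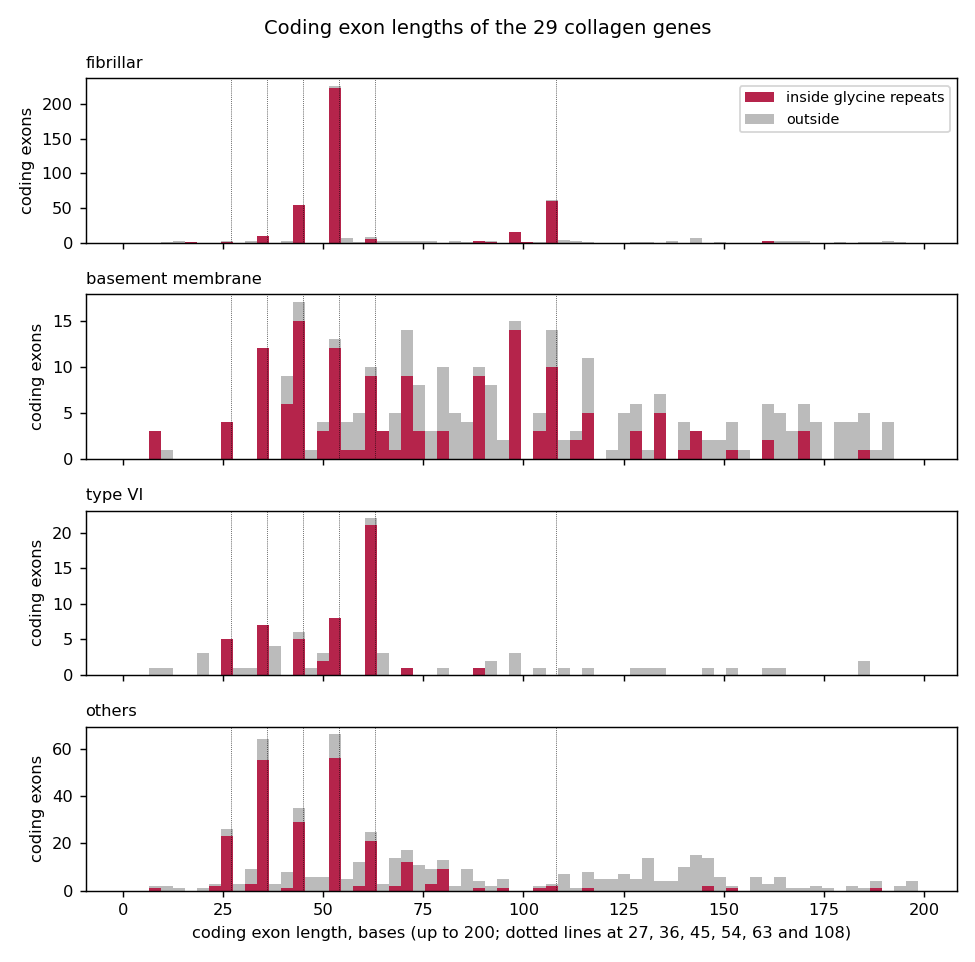
Number of coding exons (y axis) by length in bases (x axis, up to 200) in the 4 classes of collagen genes, with exons wholly inside glycine repeats in red and the others in grey. The fibrillar exons inside the repeats stand mostly at 54 bases (223 of 376), and those of type VI peak at 63.

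The levels of the chains were compared as CPM, the reads per library scaled by TMM to a common depth, per kilobase of exonic sequence. In Control, the highest was COL6A1 at 38.8 ± 4.93 (SD, n = 3), followed by COL18A1, the chain that contains endostatin, at 34.2 ± 6.13, and COL4A2 at 26.9 ± 7.23. Each overlapped the next in this order, whereas COL6A1 and COL4A2 did not overlap. COL8A1 (19.4 ± 6.79), COL5A1 (18.6 ± 2.44), COL13A1 (18.2 ± 2.45), COL6A2 (16.3 ± 2.20), COL12A1 (13.1 ± 3.73), COL7A1 (11.6 ± 1.49) and COL4A1 (11.2 ± 3.71) came next, again with each overlapping its neighbour. The following chain, COL27A1, stood at 3.24 ± 0.09 and did not overlap COL4A1. COL17A1 (1.84 ± 0.12), COL9A2 (1.52 ± 0.14), COL1A1 (1.37 ± 0.22) and COL6A3 (0.83 ± 0.09) were lower, and the other 14 chains had means of at most that of COL16A1, 0.40 ± 0.06. The chains of a single heterotrimer therefore differed widely in RNA. COL6A1 was 46.8 ± 3.57 times COL6A3 per kilobase in Control, and COL1A1, the α1 chain of type I, was between 23.2 and 103 times COL1A2, its partner. These ratios depend on the exonic length taken, since the union of exons in the annotation is longer than any single transcript: with the longest transcript in its place, COL4A2 led at 80.3 ± 21.6, followed by COL13A1 at 61.7 ± 8.30 and COL6A1 at 51.1 ± 6.49, and COL6A1 was 30.2 ± 2.30 times COL6A3.

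**Figure D2:**
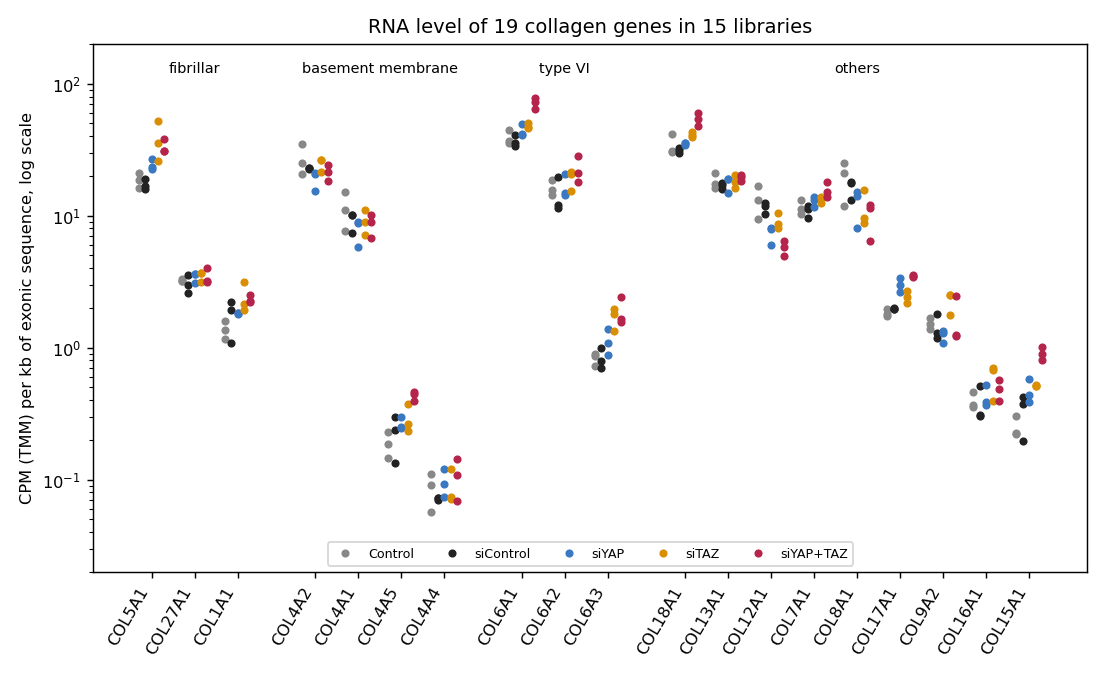
RNA level of the 19 collagen genes that averaged 20 normalized counts or more, as TMM CPM per kilobase of exonic sequence (log axis), with 1 point per library and the 5 groups in colour. In Control, 10 chains lie above 10 on average, whereas COL6A3 lies at 0.83 and COL15A1 at 0.25.

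Knockdown of YAP and TAZ together was accompanied by higher RNA of several collagens, chains of type VI among them, and by lower COL12A1. Relative to siControl, 9 of the 29 genes rose and 2 fell past the adjusted p threshold of 0.05, against 9.97% and 8.39% of all genes. When the log2 fold change also had to reach 1 in size, 3 rose (COL15A1, COL6A3 and COL9A3) and 2 fell (COL12A1 and COL24A1), against 3.14% and 0.318% of all genes. The median log2 fold change of the 29 genes was 0.53, and that of all 18858 genes was -0.0048. Relative to the untransfected cells of Control, these medians were 0.32 and -0.016. All siYAP+TAZ libraries lay above all siControl libraries for 13 of the 29 genes, and below them for 4, against 18.2% of all genes in each direction. By class, the median was 0.97 over the type VI genes, 0.49 over the other types, 0.38 over the fibrillar genes and 0.27 over the type IV genes.

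**Figure D3:**
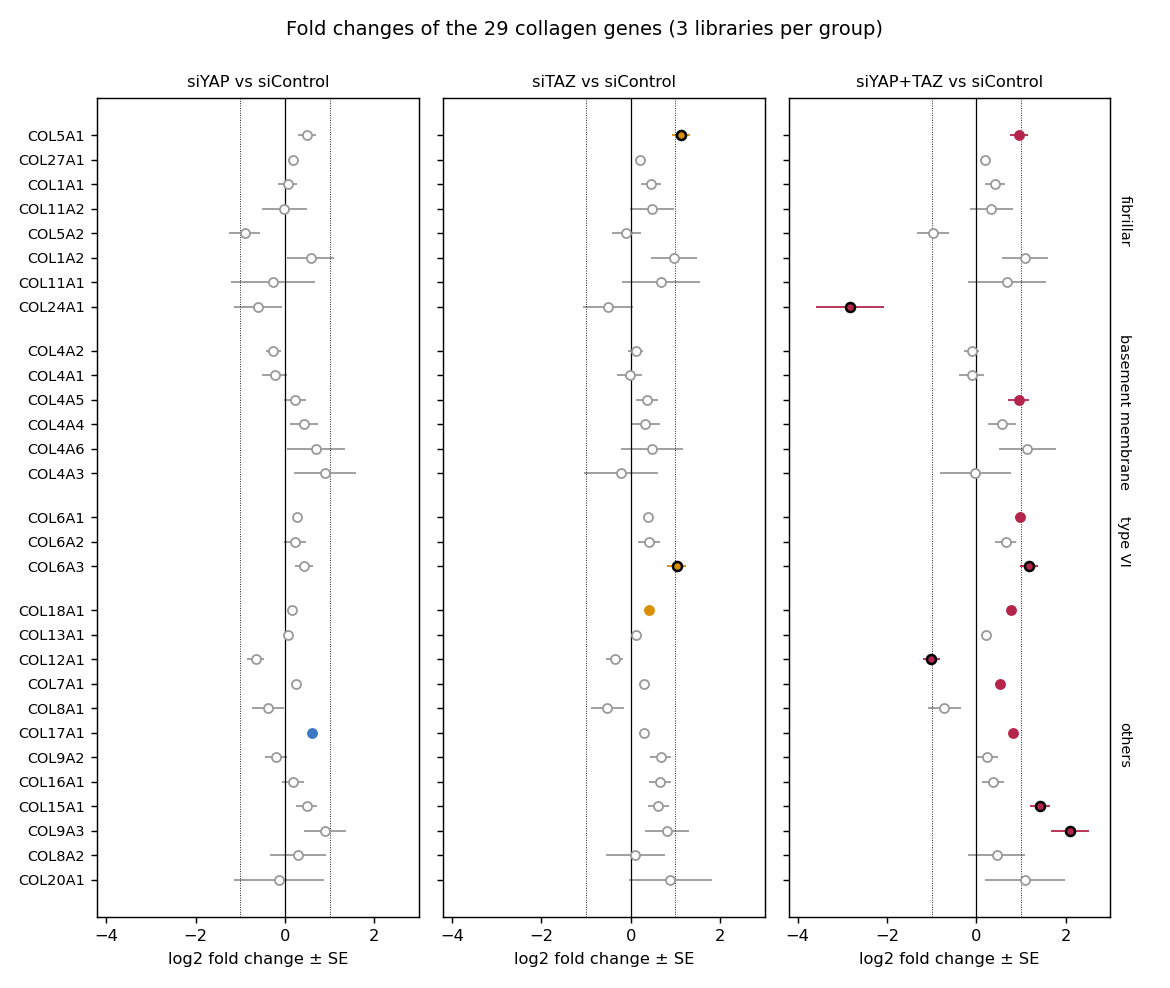
Log2 fold change ± SE (x axis) of the 29 collagen genes, by class, in siYAP, siTAZ and siYAP+TAZ relative to siControl, with 3 libraries per group. Filled points passed the adjusted p threshold of 0.05, black rims mark those also past an absolute log2 fold change of 1 (dotted lines), and the fitted value of COL24A1 in siYAP+TAZ rests on 2 reads.

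All 3 type VI chains had higher means in siYAP+TAZ, and 2 of them rose, against 9.97% of all genes. COL6A1 (chromosome 21, 45981770 to 46005050) had 4395, 4645 and 5343 normalized counts in siControl and 8412, 9545 and 10217 in siYAP+TAZ. Every co-knockdown library was above every other library of the study, and the rise was 0.97 (SE 0.10, edgeR adjusted p = 5.1e-06). COL6A3 (chromosome 2, 237324003 to 237414328, minus strand), the largest chain, with many von Willebrand factor A domains, had 403, 359.7 and 506 in siControl and 789.5, 842 and 1225 in siYAP+TAZ, and rose by 1.18 (SE 0.21, adjusted p = 0.0015). Without siYAP+TAZ 30, its value was 0.96 and no longer reached 1. COL6A2, which lies 93.1 kb downstream of COL6A1 on the same strand, had 1449, 1519 and 2457 in siControl and 2275, 2674 and 3564 in siYAP+TAZ. The groups overlapped through siControl 27, and the log2 fold change of 0.65 (SE 0.24, adjusted p = 0.089) did not pass the test. The ratio of COL6A1 to COL6A2 per kilobase was 2.65 ± 0.48 (SD, n = 3) in siControl and 3.25 ± 0.43 in siYAP+TAZ, ranges that overlapped.

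The fibrillar chains did not move as one class. COL5A1 (chromosome 9, 134641803 to 134844843), the type V chain that sets the diameter of type I fibrils, had 4229, 4445 and 5019.6 normalized counts in siControl and 8158, 8165 and 10138 in siYAP+TAZ, with no overlap. It rose by 0.95 (SE 0.20, edgeR adjusted p = 0.0058). COL5A2, its partner in the type V heterotrimer, was a low-count gene and had 22.1, 17.6 and 18.2 in siControl and 11.9, 10.7 and 7.34 in siYAP+TAZ. Its log2 fold change was -0.97 (SE 0.35, adjusted p = 0.066), opposite in sign to that of COL5A1, and did not pass the test. In normalized counts COL5A1 was between 191 and 275 times COL5A2 in siControl, and between 686 and 1381 times in siYAP+TAZ. COL1A1 had 408, 469 and 229.6 in siControl and 472, 484 and 529 in siYAP+TAZ. The co-knockdown libraries were above all those of siControl, though siControl 22 came within a few counts, and the difference of 0.42 (SE 0.22, adjusted p = 0.22) did not pass. COL1A2, the other chain of the type I heterotrimer, stayed under 20 normalized counts in every library. COL27A1, a fibrillar chain with an interrupted helix, differed by 0.19 (SE 0.11, adjusted p = 0.28).

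COL24A1, another fibrillar chain, was at the limit of these data. It had 6, 6 and 6 raw reads in siControl and 0, 0 and 2 in siYAP+TAZ. After correction for library size the ratio of summed reads was 0.124, with an exact 95% interval of 0.0139 to 0.517 that covers counting error only. The edgeR test called it (adjusted p = 0.014), but DESeq2 gave an adjusted p of 0.054, and without siYAP+TAZ 20 or 25 the edgeR adjusted p was 0.053 or 0.058. COL11A1 and COL11A2, the cartilage fibrillar chains, had at most 33.0 normalized counts in any library and did not pass the test in any comparison.

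The 2 abundant type IV chains did not pass the test. COL4A1 and COL4A2, the ubiquitous α1 and α2 chains, lie head to head on chromosome 13 with 126 bases between their RefSeq start sites. The part of this stretch that lies in no exon of GENCODE release 44 is 100 bases long, is 78% G or C, and is shown because it lies between these start sites (GRCh38.p14, chr13:110307158-110307257, plus strand, from the side of COL4A1 towards COL4A2). In GENCODE release 44 the COL4A2 gene begins further back, at base 110305812, so that the spans of both genes overlap there.
COL4A1/COL4A2: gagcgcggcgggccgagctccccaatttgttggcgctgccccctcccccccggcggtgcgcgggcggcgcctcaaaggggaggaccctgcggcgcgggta
COL4A2 had 10527, 10453 and 10209.9 normalized counts in siControl and 9686, 10988 and 8361 in siYAP+TAZ, and COL4A1 had 3525, 3504 and 2559 in siControl and 3088, 3491 and 2336 in siYAP+TAZ. The groups overlapped for both genes. The log2 fold changes were -0.10 (SE 0.17, edgeR adjusted p = 0.74) and -0.11 (SE 0.27, adjusted p = 0.84). Over the 15 libraries, COL4A2 stayed between 2.98 and 3.99 times COL4A1 in normalized counts, although COL4A1 itself varied 2.60-fold and COL4A2 2.26-fold. The libraries share depth and processing, so this narrow ratio is given as a description.

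The other type IV chains form the networks of kidney, lung and skin basement membranes. COL4A5 had 66.3, 84.1 and 37.5 normalized counts in siControl and 111, 125 and 129 in siYAP+TAZ, and rose by 0.95 (SE 0.24, edgeR adjusted p = 0.0095). COL4A6, which lies head to head with COL4A5 on the X chromosome, had at most 9.51 normalized counts in any library and differed by 1.14 (SE 0.64, adjusted p = 0.25). COL4A4 had 19.6, 20.3 and 20.4 in siControl and 40.4, 19.3 and 30.3 in siYAP+TAZ. These overlapped, and the difference of 0.57 (SE 0.32, adjusted p = 0.25) did not pass. COL4A3, its head-to-head neighbour on chromosome 2, stayed under 10 normalized counts in every library, and 6.82% of its exonic bases overlap a gene on the opposite strand.

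Among the remaining types, 5 of 12 genes rose and 1 fell in siYAP+TAZ, against 9.97% and 8.39% of all genes. COL18A1 and COL15A1 are the multiplexins, heparan or chondroitin sulfate proteoglycans of the basement membrane zone. COL18A1 (chromosome 21, 45405165 to 45513720) had 5982, 6314 and 6498 normalized counts in siControl and 9624, 10739.6 and 11908 in siYAP+TAZ, a rise of 0.78 (SE 0.10, edgeR adjusted p = 3.3e-05). The sources do not state if reads were counted by strand, and 18.5% of the exonic bases of COL18A1 overlap SLC19A1 on the opposite strand. SLC19A1 had between 19.6 and 62.4 normalized counts over the siControl and siYAP+TAZ libraries. COL15A1 (chromosome 9, 98943179 to 99070792) was far lower, with 66.3, 59.2 and 31.1 in siControl and 126, 141 and 159 in siYAP+TAZ. It rose by 1.43 (SE 0.22, adjusted p = 0.00021), and by between 1.18 and 1.64 without any single library.

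COL17A1 and COL7A1 are collagens of the junction between epidermis and dermis, the first a transmembrane chain of hemidesmosomes and the second the chain of anchoring fibrils. COL17A1 (chromosome 10, 104031286 to 104085880, minus strand) had 327, 333 and 323 normalized counts in siControl and 581, 582 and 572 in siYAP+TAZ, with little spread in either group, a rise of 0.82 (SE 0.10, edgeR adjusted p = 2.3e-05). COL7A1 had 2507, 3096 and 2959 in siControl and 3654, 3975 and 4721 in siYAP+TAZ, a rise of 0.53 (SE 0.11, adjusted p = 0.0023). COL9A3, a chain of the cartilage-associated type IX collagen, rose from 4.25, 4.62 and 2.15 to 14.3, 18.3 and 16.5 (log2 fold change 2.09, SE 0.43, adjusted p = 0.0021), at raw counts of 5, 5 and 2 against 12, 17 and 18. Its Control libraries, at 6.99, 8.16 and 6.57, lay above all those of siControl, and relative to Control the difference was 1.16 (SE 0.40, adjusted p = 0.049). COL9A2, the other type IX chain in the table, differed by 0.23 (SE 0.24, adjusted p = 0.57). COL13A1, a transmembrane collagen, differed by 0.21 (SE 0.11, adjusted p = 0.20) although its groups did not overlap. COL16A1, a fibril-associated chain, differed by 0.38 (SE 0.25, adjusted p = 0.33). COL8A2 and COL20A1 had at most 11.1 and 6.99 normalized counts in any library and did not pass the test in any comparison.

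COL12A1 was the abundant collagen that fell. It encodes a large fibril-associated chain built mainly of fibronectin type III and von Willebrand factor A domains, which binds type I fibrils. COL12A1 (chromosome 6, 75084326 to 75206267, minus strand) had 7522, 5832 and 4199 normalized counts in Control, 5594, 5282 and 4595 in siControl, 3579, 3526 and 2680.4 in siYAP, 4634, 3866 and 3596 in siTAZ, and 2597, 2883 and 2221 in siYAP+TAZ. Every co-knockdown library was below every siControl library. COL12A1 fell by 1.01 on the log2 scale in siYAP+TAZ (SE 0.19, edgeR adjusted p = 0.0027). It stayed at an adjusted p of at most 0.016 without any single library, but was -0.94, -0.99 and -0.90 without siControl 17, siControl 22 and siYAP+TAZ 30. COL8A1, the short-chain collagen of vessel walls and of the cornea, had 3941, 4032 and 2903 in siControl and 2524, 2662 and 1439 in siYAP+TAZ. The groups did not overlap, and the difference of -0.72 (SE 0.36, adjusted p = 0.22) did not pass the test. COL8A1 did pass in the fit with a block by library number, described below.

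The RefSeq promoter windows, 250 bases before to 50 bases after each start site, were searched for the TEAD core motif GGAATG on both strands. Windows were at hand for 22 of the 29 genes, and 2 of these (9.09%), COL12A1 and COL11A2, held the motif, against 16.7% of 27305 genes. The match in COL12A1 begins 167 bases upstream of the RefSeq start site, which is inside the longer span of the gene in GENCODE release 44, and is shown because COL12A1 is the abundant member that fell, in 30 bases with the motif in capitals (GRCh38.p14, chr6:75206203-75206232, minus strand).
COL12A1 motif: cctcacgccgaaGGAATGctcgaagtatgc
A match in such a window is a description of its letters only.

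**Figure D4:**
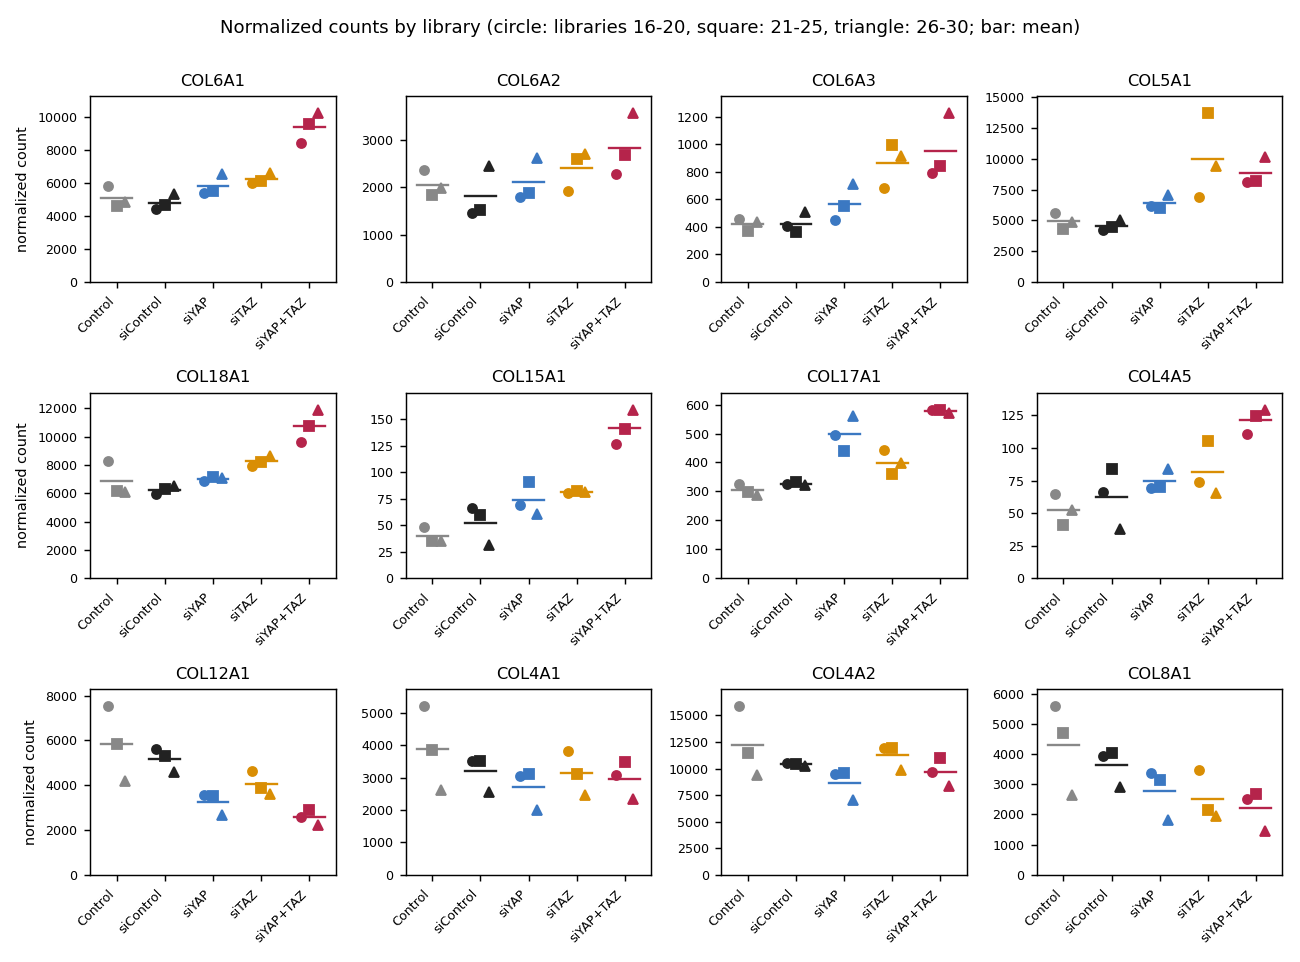
Normalized counts (y axis, from 0) of 12 collagen genes in the 15 libraries, by group, with circles for libraries 16 to 20, squares for 21 to 25, triangles for 26 to 30 and bars at the group means. COL6A1, COL18A1 and COL15A1 were highest in siYAP+TAZ, COL12A1 was lowest there, and COL8A1 and COL4A1 were lowest in the triangles in all groups.

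Part of the spread followed the order of the libraries. In libraries 26 to 30, the mean deviation from the group means on the log2 scale was -0.48 for COL8A1, -0.38 for COL4A1, -0.25 for COL12A1 and -0.21 for COL4A2, and 0.26 for COL6A2, 0.23 for COL6A3, 0.29 for COL9A2 and 0.30 for COL16A1. It was 0.027 for COL18A1 and 0.012 for COL17A1. The labels do not say that consecutive numbers mark a shared experiment. When siYAP+TAZ was set against siControl within each run of consecutive numbers, COL6A1 was higher by 0.94, 1.04 and 0.94, COL17A1 by 0.83, 0.81 and 0.82, COL6A2 by 0.65, 0.82 and 0.54, and COL12A1 was lower in each (-1.11, -0.87 and -1.05), as was COL8A1 (-0.64, -0.60 and -1.01). Of the 29 genes, 19 were higher in all 3 runs and 5 were lower in all 3, against 27.6% and 28.7% of all genes. With the run as a block, 10 collagen genes rose and 4 fell, with 28.6% of all genes passing in either direction. COL6A2, COL8A1 and COL5A2 also passed the test in this fit (edgeR adjusted p = 0.026, 0.0066 and 0.045).

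Each knockdown alone moved fewer collagens. In siYAP, 1 of 29 genes rose and 0 fell by the adjusted p, against 0.477% and 0.456% of all genes, and 0 passed both thresholds, against 0.0955%. At an unadjusted p under 0.05 there were 7, against 11.9%, and DESeq2 called 2 at its adjusted p, against 2.12%. The one gene was COL17A1, with 495, 440.3 and 561 normalized counts (log2 fold change 0.60, SE 0.10, edgeR adjusted p = 0.0076). Without siControl 17 its adjusted p was 0.055. COL12A1 differed by -0.66 (SE 0.19, adjusted p = 0.14), COL5A1 by 0.49 (SE 0.20, adjusted p = 0.35) and COL6A1 by 0.28 (SE 0.10, adjusted p = 0.25), and for these 3 genes the groups did not overlap. The siYAP libraries were all above siControl for 6 genes and all below for 4, against 9.65% and 9.86% of all genes. COL4A2 was among the latter, at 9464, 9536 and 7021 (log2 fold change -0.26, SE 0.17, adjusted p = 0.61). Within the runs of library numbers, the log2 ratio of COL12A1 in siYAP to siControl lay between -0.78 and -0.58. Same-run libraries of siYAP and siControl correlated in their deviations by 0.12, 0.11 and 0.30 over all genes. With the run as a block, 1 collagen gene rose and 1 fell in siYAP, against 6.1% of all genes in either direction.

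In siTAZ, 3 of 29 genes rose and 0 fell, against 1.34% and 0.695% of all genes. Both thresholds were passed upwards by 2 (COL5A1 and COL6A3) and downwards by 0, against 0.164% and 0.0477%. COL5A1 had 6859.6, 13710.5 and 9395 normalized counts, with siTAZ 24 the highest of the 15 libraries (log2 fold change 1.13, SE 0.20, edgeR adjusted p = 0.014). Without siTAZ 24 it was 0.83, and without siControl 17 or 22 its adjusted p was 0.073 or 0.078. COL6A3 had 680.3, 994 and 915 (1.03, SE 0.21, adjusted p = 0.023), and its adjusted p lay between 0.076 and 0.15 without siControl 17, siControl 22, siTAZ 24 or siTAZ 29. COL18A1 had 7913, 8242 and 8657 (0.40, SE 0.10, adjusted p = 0.046), which was lost without 5 of the 6 libraries compared, siTAZ 19 being the exception. COL12A1 differed by -0.35 (SE 0.19, adjusted p = 0.39). With the run of library numbers as a block, 8 genes passed in siTAZ (against 10.3% of all genes) and 2 in siYAP (against 6.1%). All siTAZ libraries were above siControl for 9 genes and below for 1, against 10.7% and 10.2% of all genes.

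The co-knockdown was also set directly against each single knockdown. Relative to siYAP, 3 genes rose and 0 fell, against 3.43% and 1.7% of all genes, and 0 passed both thresholds, against 0.742%. They were COL6A1 (0.69, SE 0.10, edgeR adjusted p = 0.00055), COL18A1 (0.61, SE 0.10, adjusted p = 0.0013) and COL15A1 (0.95, SE 0.22, adjusted p = 0.015). COL6A3 differed by 0.75 (SE 0.21, adjusted p = 0.052). Relative to siTAZ, 4 genes rose and 0 fell, against 3.06% and 2.38% of all genes, and 0 passed both thresholds, against 0.78%. They were COL6A1 (0.59, SE 0.10, adjusted p = 0.0025), COL17A1 (0.53, SE 0.10, adjusted p = 0.0045), COL18A1 (0.38, SE 0.10, adjusted p = 0.033) and COL15A1 (0.81, SE 0.22, adjusted p = 0.036). The values of COL15A1 against siTAZ had adjusted p-values between 0.064 and 0.10 without any single library, those of COL18A1 against siTAZ lost the test in 5 of 6 such fits, and those of COL15A1 against siYAP in 4 of 6. COL6A3 differed from siTAZ by 0.15 (SE 0.20, adjusted p = 0.76) and COL5A1 had 8158, 8165 and 10138 against 6859.6, 13710.5 and 9395. With the run as a block, 7 genes passed against siYAP and 7 against siTAZ, beside 14.6% and 14.8% of all genes. These comparisons share the siYAP+TAZ libraries, in which the targeted RNAs were on average not as low as in the single knockdowns.

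Whether the co-knockdown departed from the sum of the single effects was tested as an interaction. It was called by edgeR for 0 of the 29 genes, against 0.0106% of all genes, and at an unadjusted p under 0.05 for 2, against 5.85%. Those were COL6A1, which departed by 0.32 (SE 0.14, adjusted p = 0.83), and COL5A1, by -0.67 (SE 0.28, adjusted p = 0.81). DESeq2 also called 0, against 0.111%. The departure was 0.0075 (SE 0.27) for COL12A1 and 0.21 (SE 0.14) for COL18A1. YAP1 averaged 1513 normalized counts in siYAP and 2079 in siYAP+TAZ, and WWTR1 averaged 534 in siTAZ and 1180 in siYAP+TAZ. The knockdowns compared were thus not equally deep, and a lack of calls does not show that their effects add. Transfection itself was compared as siControl against Control, in which edgeR called 0 of the 29 genes, against 0% of all genes, and 0 had an unadjusted p under 0.05, against 2.11%. DESeq2 called 0 here too, likewise against 0%. The largest difference by unadjusted p was COL9A3, with -0.93 (SE 0.49). Of the 29 genes, 23 had a negative log2 fold change, with a median of -0.13, and Control 16 had the highest COL4A2, COL4A1, COL12A1 and COL8A1 of all libraries.

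The makeup of the collagen RNA per kilobase was summed by class in each library. Type VI genes made up 24.0%, 24.2% and 30.2% of it in siControl and 32.9%, 34.1% and 36.7% in siYAP+TAZ. Type IV genes made up 17.6%, 16.8% and 14.8% in siControl and 12.1%, 12.4% and 8.68% in siYAP+TAZ. The groups did not overlap in either share, although the type IV sums themselves did, at 33.6, 33.4 and 30.0 CPM per kilobase in siControl and 30.8, 34.7 and 25.7 in siYAP+TAZ. The fibrillar share was between 10.9% and 11.8% in siControl and between 13.0% and 15.3% in siYAP+TAZ, and reached 22.8% in siTAZ 24, the library with the highest COL5A1. In siYAP 28 the type VI share was 34.7% and the type IV share 10.4%, within the ranges of siYAP+TAZ. The total over the 29 genes was 191, 199 and 203 in siControl and 255, 281 and 296 in siYAP+TAZ. It was 262, 205 and 188 in Control, between 208 and 211 in siYAP and between 235 and 260 in siTAZ, so that Control 16 and siTAZ 24 lay above siYAP+TAZ 20. These shares are made of the same gene values as above and are not independent of them. With the longest transcript as length, type IV genes made up 26.6%, 25.6% and 23.5% in siControl and 19.8%, 20.2% and 14.8% in siYAP+TAZ, and type VI genes 18.3%, 18.6% and 24.1% against 27.1%, 27.9% and 31.7%. The groups again did not overlap in either share, but the type IV share then exceeded that of type VI in siControl 17 and 22.

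Collagen chains are hydroxylated, folded and trimmed by a set of enzymes and chaperones before they assemble. Of a list of 33 such genes, 32 were in the table. In siYAP+TAZ, 9 rose and 1 fell by the adjusted p, against 9.97% and 8.39% of all genes, and 2 rose past both thresholds, against 3.14%. The list median was 0.21, beside -0.0048 over all genes. Among the proteinases that remove the propeptides, ADAMTS14, which cleaves the amino end of procollagen, rose from 18.7, 35.1 and 44 normalized counts in siControl to 103, 116 and 148 (1.93, SE 0.28, edgeR adjusted p = 0.00011). BMP1, which cleaves the carboxyl end, rose by 0.66 (SE 0.086, adjusted p = 3.6e-05), and its enhancer PCOLCE by 0.56 (SE 0.19, adjusted p = 0.0497). P3H4, a partner of lysyl hydroxylation in the endoplasmic reticulum, rose from 186, 166 and 172 to 389, 356 and 341 (1.05, SE 0.12, adjusted p = 1.4e-05). The prolyl 4-hydroxylase subunits P4HA1 and P4HA2, the lysyl hydroxylase PLOD1, the export factor MIA2 and the cross-linking oxidase LOXL1 rose by between 0.54 and 0.72. The 1 that fell was P3H2, a prolyl 3-hydroxylase, with 3127, 3213 and 2239 in siControl and 1741, 1759 and 1386 in siYAP+TAZ (-0.81, SE 0.16, adjusted p = 0.0034).

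The most abundant genes of that list did not pass the test. P4HB, protein disulfide isomerase and the β subunit of prolyl 4-hydroxylase, stood at 79.6 ± 3.09 CPM per kilobase (SD, n = 3) in siControl, and LOXL2, a lysyl oxidase, at 68.0 ± 2.70. In siTAZ 3 genes of the list rose (LOXL1, P3H4 and BMP1) and in siYAP 1 (LOXL1), with medians of 0.16 and 0.13, and 0 fell in either. Of all genes 1.34% rose and 0.695% fell in siTAZ, and 0.477% rose and 0.456% fell in siYAP. LOXL1 rose by 0.81 (SE 0.11, edgeR adjusted p = 0.0023) in siTAZ, 0.62 (SE 0.11, adjusted p = 0.0098) in siYAP and 0.65 (SE 0.11, adjusted p = 0.00044) in siYAP+TAZ.

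**Figure D5:**
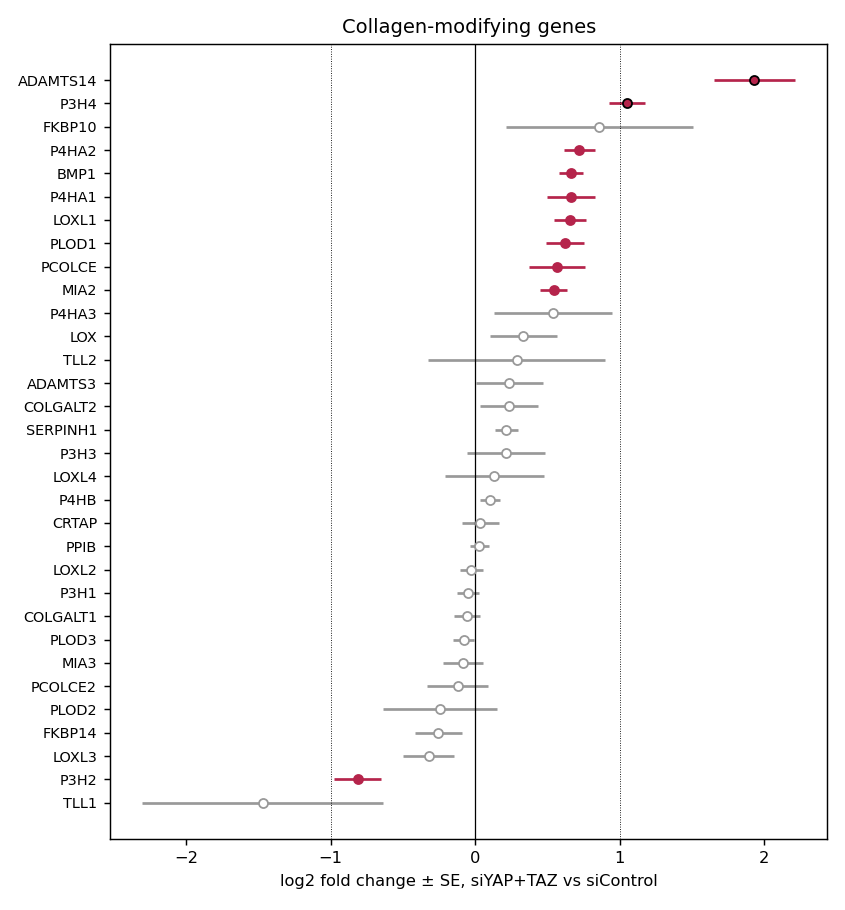
Log2 fold change ± SE (x axis) in siYAP+TAZ relative to siControl of the 32 measured genes that modify, fold, trim or cross-link collagen, sorted by value. Filled points passed the adjusted p threshold, and black rims mark ADAMTS14 (1.93) and P3H4 (1.05), which also pass an absolute log2 fold change of 1.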

How the data were processed

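Polyadenylated RNA was sequenced by the authors as single reads and run through UTAP 1.10, in which STAR 2.4.2a aligned reads to GRCh38 with GENCODE 34 and counted reads per gene. They deposited raw counts per gene, a normalized signal, scaled by DESeq2 size factors, and log2 values from DESeq2's rlog, beside their own fold changes and p-values per comparison, which were not used. Here the deposited counts were tested with edgeR 4.0.16 in R 4.3.3 (TMM, robust quasi-likelihood fit, 1 coefficient per group, 15 libraries, Benjamini-Hochberg over 18858 genes) after a check on simulated counts. Each SE is the size of the log2 fold change over the square root of the test's F statistic, and is unreliable for small changes. Thresholds were an adjusted p of at most 0.05, alone or with a log2 fold change of 1 or more in size. Groups came from the sample titles.

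The members, classes and lists were chosen with earlier results of these data known. Full statistics were given for members with an adjusted p of at most 0.05 in any comparison or of types I, III, IV, V and VI, averaging 20 normalized counts or more, and for collagen-modifying genes past both thresholds or most abundant per length. Lower members, and SLC19A1, were named after their values were seen. Of 44 collagen genes in the class list, 15 had no entry in the deposited counts. Positions and exons are from GENCODE 44, and promoter windows from RefSeq (GRCh38.p14). Alternatives were DESeq2 1.42.0, its size factors, library size alone, a filter on low counts, Control as reference, a block by run of library numbers, the longest transcript as length, and leaving out each library.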

Additional observations from a re-analysis of the deposited data

How the results depend on the processing

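No collagen fold change that passed the test changed sign under any alternative run. Of those that did not pass, 20 changed sign in fits of all libraries, 11 of them with Control as reference, among which were COL4A2 in siTAZ (-0.12), COL9A3 in siYAP (-0.03) and COL11A2 in siYAP+TAZ (-0.36). Of the counts of collagen genes passing the test, that past both thresholds in siYAP+TAZ was 5 and became 3 with DESeq2 and 3 with at least 10 reads in at least 3 libraries (past which went 3.27% and 3.84% of the genes tested), where COL12A1 was just under the fold threshold (-0.997 in both) and COL24A1 missed the DESeq2 threshold or, under the filter, was not tested. In siYAP the count at an adjusted p of at most 0.05 was 1 and became 2 with DESeq2, with Control as reference and with the replicate block, in which 2.12%, 1.46% and 6.1% of all genes passed. The groups share no replicate number. The block is the run of consecutive library numbers, which the labels do not call a pairing. Same-run libraries of siYAP+TAZ and siControl correlated in their deviations by 0.11, 0.045 and 0.27 over all genes and by 0.64, 0.49 and 0.55 over the collagen genes. With this block the count rose to 8 from 3 in siTAZ, to 7 from 3 against siYAP and to 7 from 4 against siTAZ. Of all genes, 10.3%, 14.6% and 14.8% passed in these fits. Past both thresholds the count rose to 1 from 0 against siYAP and against siTAZ, beside 1.38% and 1.46% of all genes. Of the other fits, COL18A1 in siTAZ lost the test with Control as reference (0.27, edgeR adjusted p = 0.14). Leaving out each library gave between 3 and 7 genes past both thresholds in siYAP+TAZ and between 10 and 12 at the adjusted p alone, between 0 and 0 and between 0 and 1 in siYAP, between 0 and 2 and between 0 and 4 in siTAZ, between 0 and 1 and between 2 and 3 against siYAP, between 0 and 1 and between 2 and 4 against siTAZ, and 0 for siControl against Control and for the interaction. No share of all genes stands beside these leave-one-out counts, so whether their moves are particular to the collagen genes was not tested. With the longest transcript as length, 21 of 29 levels moved by more than their SD. Depth limits the 10 genes with a mean under 20 normalized counts.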

Other observations

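The table also holds antisense transcripts named after collagen genes. COL5A1-AS1 had at most 7.13 normalized counts in siYAP+TAZ and at most 3.70 in siControl (log2 fold change 1.02, SE 0.69, edgeR adjusted p = 0.35). COL18A1-AS1 had at most 10.7 and 1.85 (2.45, SE 0.89, adjusted p = 0.065). Neither passed the test, and in GENCODE release 44 their exons overlap no exon of COL5A1 or COL18A1.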
